A study of Mus musculus with 2 samples.

Results

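Gzmb-negative CD8 T cells were the cells in which no transcript of Gzmb, the gene of the serine protease granzyme B, was counted. They were taken from cells with at least 4000 unique molecular identifiers (UMIs, each a tag for 1 captured RNA molecule) and with under 10% of UMIs from mitochondrially encoded genes. The rule found 407 cells, 300 in the library of glucose-restricted cells and 107 in the control library. They were 407 of the 3738 cells that passed the depth and mitochondrial limits (2150 restricted and 1588 control cells) and of 5884 cell barcodes in all. They were set against Gzmb-high cells, which held 3 or more Gzmb UMIs (1191 restricted and 1175 control cells). The members were chosen by their Gzmb count, so values of Gzmb itself are given as a description.

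The study profiled single OT-I CD8 T cells, whose transgenic T cell receptor recognises the ovalbumin peptide SIINFEKL, from spleen and lymph nodes of mice aged 8 to 12 weeks. Splenocyte suspensions were activated with the peptide and 100 U/ml interleukin-2 for 48 h and moved to expansion medium with the same cytokine and 11 mM glucose, and the cells then spent 20 h either in transient glucose restriction (TGR, 1 mM glucose) or in control medium (11 mM glucose). Whether the 1 mM medium held interleukin-2 is not given in the sources used here. The sample descriptions instead give 3 days of growth before the exposure. Each condition was a single droplet library (10x Genomics, version 2 chemistry), with an estimated 5000 cells loaded and about 3000 recovered per channel, against 2548 TGR and 3336 control barcodes in the files. With 1 library per condition there is no replicate check and no test. Intervals are 95% and cover counting error only, and cells of 1 library are not replicates.

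Granzyme B is stored in cytotoxic granules and enters a target cell through pores made by perforin, where it triggers apoptosis. Naive CD8 T cells carry little of its message, and activation, interleukin-2 signalling through STAT5 and effector transcription factors raise it. TCF-1, encoded by Tcf7, is best known in naive, stem-like and memory-precursor T cells, whereas ID2 and strong CD25 (Il2ra) expression are best known in effector cells.

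The members carried the transcripts of CD8 T cells. Every one of the 300 TGR and 107 control members held at least 1 UMI of Cd3d, Cd3e, Cd3g, Cd8a or Cd8b1, and the 7 CD8 T cell markers found in the table summed to 2843 counts per 1000000 without Gzmb (CPM) in TGR members and 2976 CPM in matched TGR Gzmb-high cells, and to 3901 CPM in control members and 3588 CPM in matched control Gzmb-high cells. The B cell genes Cd79a, Ms4a1 and Pax5, the natural killer cell genes Klrb1c, Ncr1 and Tyrobp, the myeloid genes Lyz2 and Csf1r and all 8 red cell and platelet markers stood at 0 UMIs in the members of both libraries. Other genes of these lists were counted. The B cell list, of which H2-Ab1, Cd79b and Cd74 led in TGR members, summed to 47.5 CPM there against 55.0 CPM in their partners, and to 79.3 CPM in control members against 39.7 CPM. The natural killer cell list (Cd160, Fcer1g, Klre1) summed to 18.7 CPM in TGR members against 29.9 CPM, and to 25.2 CPM in control members against 43.3 CPM. The dendritic cell list, led by Bst2, summed to 162 CPM in TGR members against 176 CPM, and to 247 CPM in control members against 258 CPM. The stromal list, through Pecam1, summed to 29.3 CPM in TGR members against 28.3 CPM, and to 32.5 CPM in control members against 14.4 CPM. The myeloid list stood at 2.67 CPM in TGR members against 5.34 CPM, and at 1.80 CPM in control members against 0 CPM, and the CD4 T cell list at 5.86 CPM in TGR members against 13.3 CPM, and at 5.41 CPM in control members against 1.80 CPM. In all, 42 TGR members against 45 partners, and 15 control members against 8, held 2 or more UMIs of such markers, with Bst2 and Batf3 and the CD4 list not counted. These markers alone do not tell naive CD8 T cells from activated cells low in Gzmb. No class of cells that should lack Gzmb was found in either library, so the share of Gzmb UMIs that comes from free RNA was not measured. Of 11 barcodes that both libraries share, 0 were among the members or their matched cells.

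A count of 0 Gzmb depended on depth as well as on the level of the gene. Members made up 14.0% of the TGR cells that passed (interval 12.5 to 15.5%) and 6.74% of the control cells (5.55 to 8.08%). If every cell held its library's mean share of Gzmb, Poisson counting would leave 99.9 TGR cells (4.65%) and 13.8 control cells (0.87%) at 0. Members at 0 through counting alone cannot be told from the others. When every cell was thinned to 4000 UMIs, 27.8% of TGR cells (25.9 to 29.8%) and 11.1% of control cells (9.64 to 12.8%) held no Gzmb. Over all cells that passed, Gzmb stood at 481 CPM in TGR and 880 CPM in control. Between 4000 and 5000 UMIs per cell 27.1% of TGR cells and 13.3% of control cells were members, and between 8000 and 12000 UMIs 9.81% of TGR cells and 1.47% of control cells were. Just outside the rule, 338 TGR and 140 control cells held 1 Gzmb UMI, and 321 TGR and 166 control cells held 2.

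**Figure D1:**
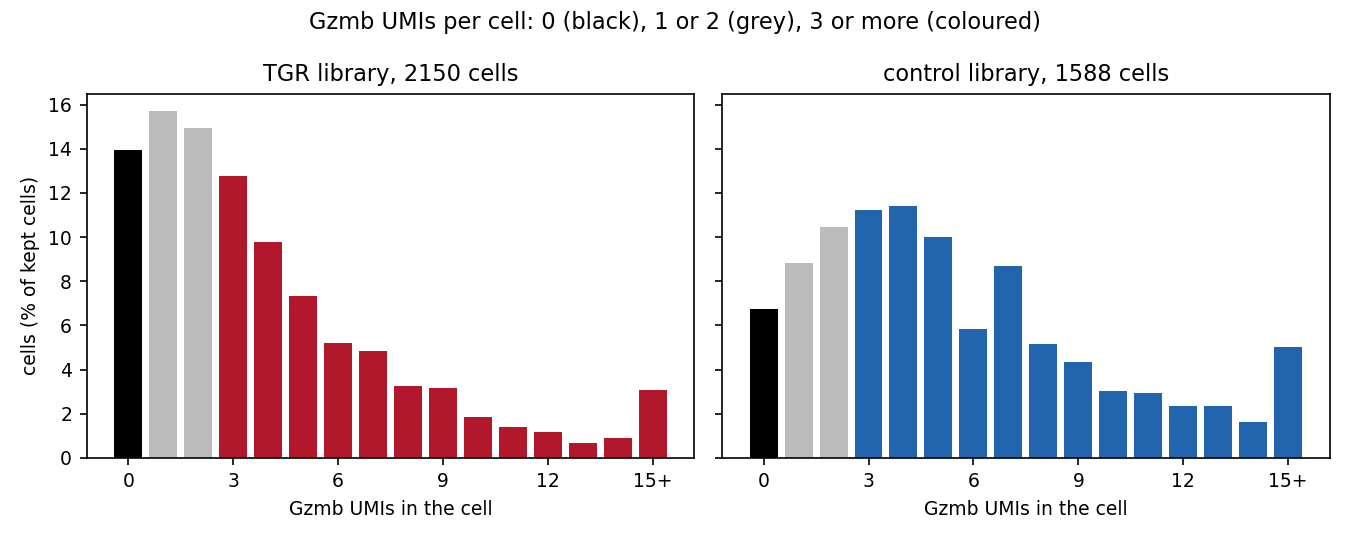
Share of cells (% of kept cells, y axis) by number of Gzmb UMIs in the cell (x axis, 15 or more pooled) in the TGR library (left, 2150 cells) and the control library (right, 1588 cells). Black bars are the Gzmb-negative cells, 14.0% in TGR and 6.74% in control; grey bars are cells with 1 or 2 UMIs and coloured bars the Gzmb-high cells.

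Because deeper cells more often hold a Gzmb UMI, each member was paired with 1 Gzmb-high cell of its own library within 5% of its UMI count. All 300 TGR and 107 control members found a partner. Members had a median of 5493.5 UMIs in TGR against 5498 in their partners, and 4790 in control against 4792. The partners held a median of 5 Gzmb UMIs in TGR and 4 in control. Mitochondrial UMIs had a median share of 2.48% in TGR members against 2.44% in their partners, and 2.64% in control members against 2.78%. The median share of ribosomal protein UMIs was 46.2% in TGR members against 45.8% in their partners, and 38.0% in control members against 36.9%.

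UMIs were summed over the members and over their partners, and a gene was called higher or lower where the members' CPM differed at least 1.5-fold with a counting interval that excluded a ratio of 1. In TGR, 383 of 6704 scored genes were called higher in members (5.71%) and 346 lower (5.16%). In control, with 107 pairs and so wider intervals, 200 of 6884 were called higher (2.91%) and 219 lower (3.18%). The difference between the libraries' log2 ratios (TGR minus control) was called above 0 for 225 of 7359 genes (3.06%) and below 0 for 194 (2.64%). The median log2 ratio over all scored genes was -0.0012 in TGR and -0.0014 in control, and the median difference was 0.02. A total of 26 genes were called higher in both libraries (6.79% of the TGR calls and 13.0% of the control calls) and 41 lower in both (11.8% and 18.7%). The higher ones included Tcf7, Slamf6, Dapl1, Irf7, Nusap1, Kif22 and H2afv, and the lower ones Il2ra, Socs2, Id2, Mt1, Mt2, Nme1, Ddx21, Hk2 and Itgal.

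**Figure D2:**
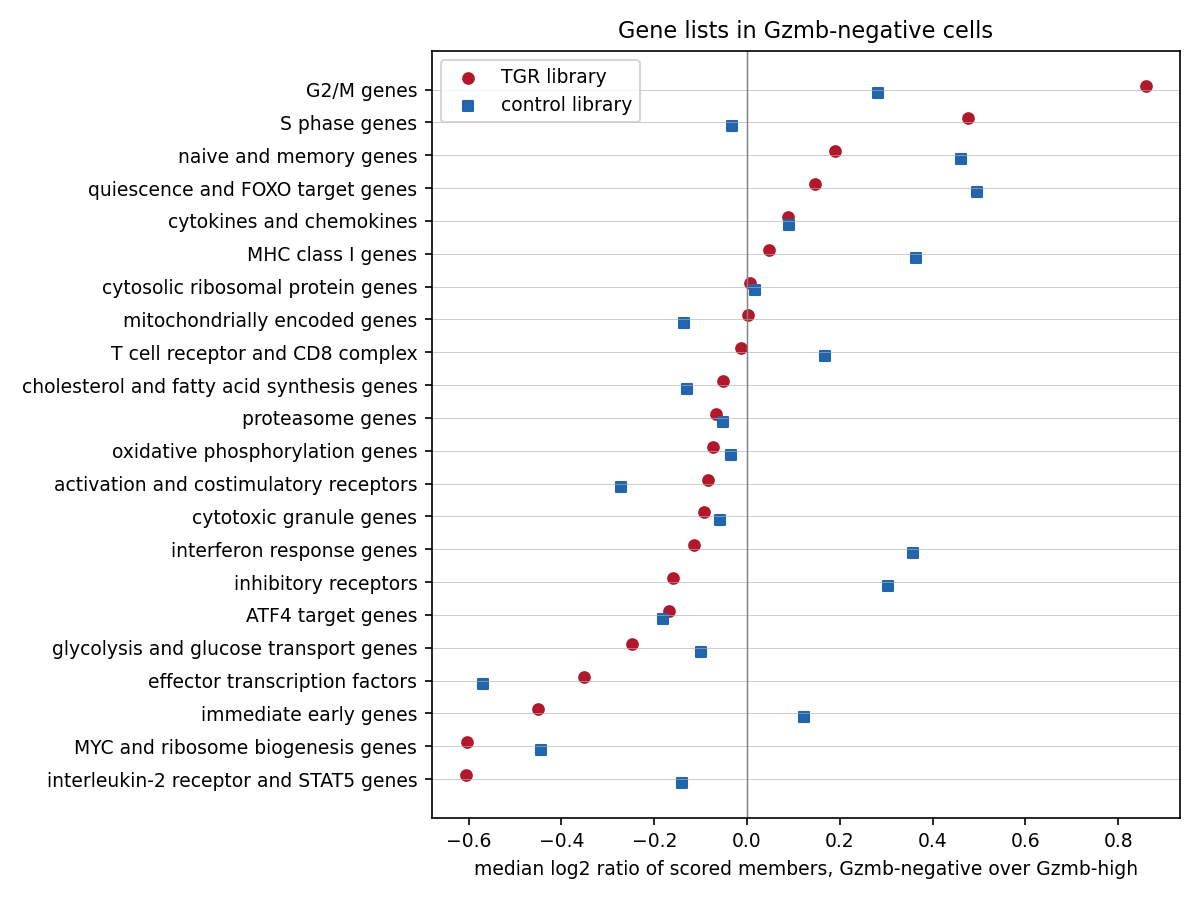
Median log2 ratio of Gzmb-negative over matched Gzmb-high cells (x axis) for the scored members of each of 22 gene lists (y axis), in the TGR library (circles, drawn above) and the control library (squares). G2/M genes had the highest TGR median (0.86, against 0.28 in control) and interleukin-2 receptor and STAT5 genes the lowest (-0.61, against -0.14 in control).

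Tcf7, which encodes the transcription factor TCF-1, was 2.13-fold higher in TGR members and 2.02-fold higher in control members than in their partners. It stood at 292 CPM in TGR members against 137 CPM in Gzmb-high cells (547 and 256 UMIs, log2 ratio 1.09, interval 0.88 to 1.31), and at 216 CPM in control members against 106 CPM (120 and 59 UMIs, log2 ratio 1.02, 0.56 to 1.498). The difference between the ratios was 0.08 (-0.45 to 0.58), so the libraries were not told apart on this gene. At 4000 UMIs per cell Tcf7 was counted in 61.7% of TGR members (55.9 to 67.2%) against 37.7% of Gzmb-high cells (32.2 to 43.4%), and in 49.5% of control members against 30.8%. Without thinning it was counted in 74.7% of TGR members against 48.3%, and in 56.1% of control members against 38.3%. The gene lies at chr11:52252371-52283014 on the minus strand (GRCm38).

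Of the 24 naive and memory genes, 21 were scored in TGR and 22 in control. In TGR 6 were called higher (Tcf7, Il7r, S1pr1, Cxcr3, Dapl1, Slamf6) and 2 lower (Bcl2, Igfbp4), with a median log2 ratio of 0.19. In control 7 were called higher (Tcf7, Lef1, Ccr7, Id3, Dapl1, Slamf6, Actn1) and 1 lower (Eomes), with a median of 0.46. Slamf6, a surface receptor best known on stem-like CD8 T cells, stood at 92.2 CPM in TGR members against 60.3 CPM, and at 68.5 CPM in control members against 32.5 CPM (log2 ratios 0.61 and 1.06). Dapl1, a transcript of naive and memory CD8 T cells, stood at 232 CPM in TGR members against 152 CPM, and at 416 CPM in control members against 220 CPM (0.61 and 0.92). Both genes were therefore higher in members under either glucose level.

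Some members of this list differed between the libraries. Lef1, the partner factor of TCF-1, stood at 159 CPM in TGR members against 132 CPM (log2 ratio 0.27), and at 144 CPM in control members against 61.4 CPM (1.22), a difference of -0.95 (-1.63 to -0.31). Il7r, the interleukin-7 receptor chain of resting and memory T cells, stood at 89.6 CPM in TGR members against 55.5 CPM (0.69), and at 27.0 CPM in control members against 36.1 CPM (-0.40, 15 and 20 UMIs). The interval of that difference, 1.09, reached down to 0.0047. Bcl2, an inhibitor of apoptosis, stood at 336 CPM in TGR members against 718 CPM (-1.09, interval -1.23 to -0.96), and at 660 CPM in control members against 670 CPM (-0.02). Control members thus carried about the Bcl2 level of their Gzmb-high partners, whereas TGR members carried less than theirs. Ccr7, the chemokine receptor for lymph node entry, stood at 146 CPM in TGR members against 131 CPM and at 164 CPM in control members against 101 CPM (0.15 and 0.69).

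The effector transcription factor Id2 was lower in members of both libraries. It stood at 22.9 CPM in TGR members against 57.1 CPM (43 and 107 UMIs, log2 ratio -1.31, -1.86 to -0.79), and at 30.6 CPM in control members against 88.4 CPM (17 and 49 UMIs, -1.50, -2.42 to -0.71). Id3, its counterpart in memory precursors, stood at 87.4 CPM in TGR members against 60.8 CPM (0.52, under 1.5-fold) and at 169 CPM in control members against 99.3 CPM (0.77, 0.28 to 1.28). Of 16 effector transcription factors, 10 were scored in TGR, where Id2, Irf8, Bhlhe40 and Rbpj were called lower and Zeb1 higher, and 13 in control, where Id2 was the only call. Tbx21, which encodes T-bet, held 18 UMIs in TGR members against 11, and 6 in control members against 3. Irf4 stood at 10.7 CPM in TGR members against 11.7 CPM, and at 30.6 CPM in control members against 14.4 CPM, and was called in neither. Irf8 was the gene of this list whose ratio differed between the libraries, at -0.92 in TGR against 0.24 in control.

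Of 18 genes of the interleukin-2 receptor and its STAT5 pathway, 8 were lower in TGR members. The cytokine signals through the chains encoded by Il2ra, Il2rb and Il2rg and the kinases JAK1 and JAK3 to STAT5, whose targets include Cish, Socs2, Pim1, Osm and Lta. All 18 were scored in both libraries. In TGR the genes called lower were Il2ra, Il2rb, Socs1, Socs2, Cish, Pim1, Osm and Lta, 1 was called higher (Jak3), and 5 of 18 lay above 0, with a median log2 ratio of -0.61. In control 2 were called lower (Il2ra, Socs2) and 2 higher (Il2rg, Jak1), with a median of -0.14. The ratio was called lower in TGR than in control for 8 genes (Il2rb, Il2rg, Stat5b, Socs1, Cish, Pim1, Osm, Lta) and higher for 0. In a single library fewer cells with a transcript and less of it per cell cannot be told apart in the summed CPM, so shares of cells are given with it.

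Il2ra, the high-affinity chain CD25 (chr2:11642807-11693193, plus strand, GRCm38), stood at 60.8 CPM in TGR members against 145 CPM (114 and 271 UMIs, log2 ratio -1.25, -1.58 to -0.93), and at 114 CPM in control members against 235 CPM (63 and 130 UMIs, -1.04, -1.50 to -0.60). The difference was -0.21 (-0.76 to 0.36). At 4000 UMIs per cell it was counted in 22.7% of TGR members against 38.3% of Gzmb-high cells, and in 27.1% of control members against 48.6%. Without thinning the shares were 29% of TGR members against 52%, and 33.6% of control members against 55.1%. Socs2, an inhibitor induced by STAT5, stood at 21.3 CPM in TGR members against 61.9 CPM, and at 63.1 CPM in control members against 119 CPM (log2 ratios -1.53 and -0.91). For these 2 genes both libraries showed the same direction with intervals that exclude a ratio of 1.

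The other genes called lower in TGR were not called in control, and for each of them the difference between the ratios was itself called. Osm, which encodes the cytokine oncostatin M, had the lowest named ratio in TGR, with 13 UMIs in 300 members against 93 in their partners (6.93 and 49.6 CPM, log2 ratio -2.79, -3.80 to -1.996). In control it had 25 UMIs in members against 21 (45.1 and 37.9 CPM, 0.24, -0.65 to 1.16), and the difference was -3.04 (-4.40 to -1.84). It was counted in 11 of 300 TGR members against 67 of their partners, and in 22 of 107 control members against 19 of theirs, and at 4000 UMIs per cell in 2.67% of TGR members against 19.3% and 14.95% of control members against 14.0%. Lta, which encodes lymphotoxin alpha, stood at 20.8 CPM in TGR members against 81.1 CPM (-1.95), and at 39.7 CPM in control members against 48.7 CPM (-0.29), a difference of -1.66 (-2.69 to -0.64). Cish, a feedback inhibitor of the receptor, stood at 35.2 CPM in TGR members against 107 CPM (-1.60), and at 114 CPM in control members against 135 CPM (-0.25), a difference of -1.35 (-2.01 to -0.70). Socs1, another inhibitor of JAK kinases, stood at 37.9 CPM in TGR members against 107 CPM (-1.49) and at 73.9 CPM in control members against 81.2 CPM (-0.13), a difference of -1.35 (-2.12 to -0.60). Each of these 4 genes had its lowest level in TGR members, and each differed by less than 1.5-fold between the 2 control classes. Il2rb, the signalling chain shared with the interleukin-15 receptor, stood at 72.0 CPM in TGR members against 138 CPM, and at 132 CPM in control members against 157 CPM. The shared receptor chain Il2rg stood at 174 CPM in TGR members against 172 CPM, and at 177 CPM in control members against 105 CPM.

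**Figure D3:**
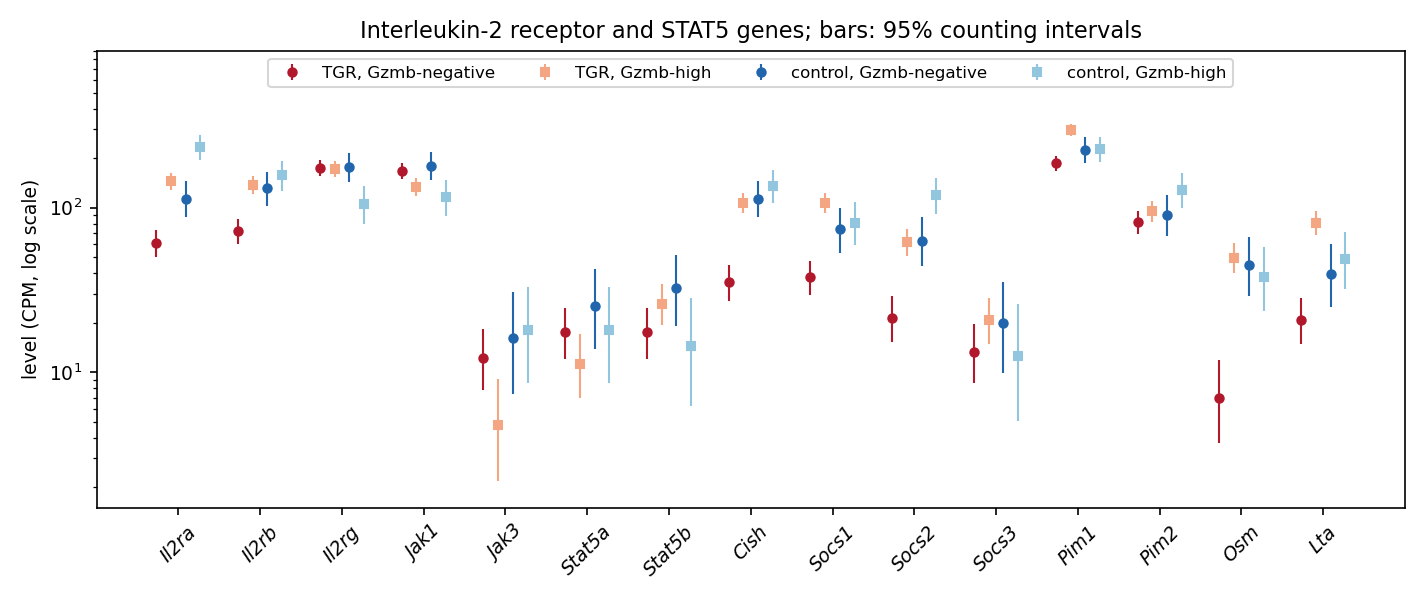
Level (CPM, log scale, y axis) of 15 of the 18 interleukin-2 receptor and STAT5 genes (x axis) in summed UMIs of Gzmb-negative cells (circles) and matched Gzmb-high cells (squares) of the TGR library (red shades, 300 pairs) and the control library (blue shades, 107 pairs), with 95% counting intervals. TGR Gzmb-negative cells were the lowest of the 4 groups for Il2ra, Il2rb, Cish, Socs1, Socs2, Osm and Lta; for Osm they stood at 6.93 CPM against 37.9 to 49.6 CPM in the other groups.

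Promoter windows from RefSeq (GRCm38.p6, 250 bases before to 50 bases after the annotated start) are shown for Gzmb, which defined the members, and for Cish and Lta, the called STAT5 list genes whose window held the letters TTCNNNGAA, the core to which STAT5 binds. The pattern reads the same on both strands, and capitals mark it in each sequence, 5′ to 3′ on the gene's own strand.
Gzmb, chr14:56262285-56262584, minus strand: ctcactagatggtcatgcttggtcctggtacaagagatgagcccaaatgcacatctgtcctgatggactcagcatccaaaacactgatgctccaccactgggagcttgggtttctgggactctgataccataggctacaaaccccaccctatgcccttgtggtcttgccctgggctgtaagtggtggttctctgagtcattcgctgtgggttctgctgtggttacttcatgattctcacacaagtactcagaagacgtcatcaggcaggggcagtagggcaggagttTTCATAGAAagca
Cish, chr9:107296409-107296708, plus strand: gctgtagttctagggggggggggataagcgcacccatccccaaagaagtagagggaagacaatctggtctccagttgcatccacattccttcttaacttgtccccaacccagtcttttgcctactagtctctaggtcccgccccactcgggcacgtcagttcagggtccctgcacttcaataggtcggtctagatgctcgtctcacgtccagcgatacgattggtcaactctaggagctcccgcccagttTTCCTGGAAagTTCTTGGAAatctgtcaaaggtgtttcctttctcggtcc
Lta, chr17:35205302-35205601, minus strand: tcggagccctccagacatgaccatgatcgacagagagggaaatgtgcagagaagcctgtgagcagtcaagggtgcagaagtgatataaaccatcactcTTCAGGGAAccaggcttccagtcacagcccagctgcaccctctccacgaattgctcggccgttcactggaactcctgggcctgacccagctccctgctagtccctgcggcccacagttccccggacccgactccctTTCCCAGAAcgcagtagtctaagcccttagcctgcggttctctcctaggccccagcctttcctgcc
The pattern occurred in 8.30% of 32851 windows and in at least 1 window of 9.55% of 27025 genes. Of the 18 list genes 15 had a window and 4 of them held the pattern, Cish, Lta, Socs3 and Ltb, of which Socs3 and Ltb were called in neither library. A match describes these letters only, and a window without one says nothing of STAT5 at that gene.

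Cell cycle genes moved with the same classes. Phase calls on cells thinned to 4000 UMIs, with both libraries scored together on the S and G2/M lists, placed 65.0% of TGR members in S or G2/M (59.3 to 70.4%) against 41.3% of their partners (35.7 to 47.1%). Most of that gap lay in G2/M, with 36.3% of TGR members against 16.7% of partners, while S was called in 28.7% against 24.7%. In control 107 of 107 members were called S or G2/M against 103 of 107 partners (96.3%), and 77.6% of members against 72.0% of partners were called G2/M. Of all 1588 control cells that passed, 19 were called G1. The pooled S or G2/M share was therefore near its upper limit in both control classes. The control G2/M share was not near a limit. Nor was the share with Mki67 at 4000 UMIs per cell, 60.7% of control members against 50.5% of partners. The cause of the smaller control gap was not tested. Of the interleukin-2 receptor and STAT5 list, Il2ra, Osm, Lta, Cish and Socs1 had ratios below 0 within phases in TGR. The part of the cell cycle in these ratios was not tested. Among 105 G1 members and their partners Il2ra had a log2 ratio of -1.57 (-2.14 to -1.06), Osm of -2.19, Lta of -1.74, Cish of -1.40 and Socs1 of -1.14. Among members and partners in S or G2/M the same ratios were -1.10, -3.86, -1.85, -1.19 and -1.67. The list median was -0.77 within TGR G1, -0.40 within TGR S or G2/M and -0.11 within control S or G2/M.

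Of 30 G2/M genes, 27 were scored in TGR and 19 were called higher in members, 0 lower, with a median log2 ratio of 0.86. In control 29 were scored and 2 were called higher, Cdc20 and Nusap1, with a median of 0.28, and 11 genes had a higher ratio in TGR than in control. Mki67, the proliferation marker Ki-67, stood at 212 CPM in TGR members against 91.8 CPM (log2 ratio 1.20, 0.94 to 1.47), and at 258 CPM in control members against 226 CPM (0.19, -0.16 to 0.55), a difference of 1.01 (0.57 to 1.46). Birc5, which encodes the chromosomal passenger protein survivin, stood at 258 CPM in TGR members against 105 CPM (1.29), and at 557 CPM in control members against 420 CPM (0.41). Top2a, the topoisomerase of chromosome condensation, stood at 453 CPM in TGR members against 201 CPM, and at 685 CPM in control members against 563 CPM (1.17 and 0.28). TGR members lay between their own partners and the control cells for these 3 genes. In G1 cells alone the TGR list median was 0.10, and in S or G2/M cells alone it was 0.52, and the phase calls use these same genes.

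Of 31 S phase genes 10 were called higher in TGR members and 1 lower, with a median log2 ratio of 0.48, against 1 higher (Pcna) and 1 lower in control, with a median of -0.03. The ratio was higher in TGR than in control for 11 of them. Tyms, the thymidylate synthase, stood at 103 CPM in TGR members against 49.6 CPM, and at 144 CPM in control members against 110 CPM (1.06 and 0.39). Ung, the uracil-DNA glycosylase, went the other way in both libraries, at 22.4 CPM in TGR members against 49.1 CPM and at 30.6 CPM in control members against 81.2 CPM (-1.12 and -1.38).

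Of the growth and ribosome biogenesis genes scored, 13 of 26 were lower in TGR members. Of 28 listed genes 26 were scored in TGR, where 13 were called lower and 0 higher with a median log2 ratio of -0.60, and 24 of the 26 lay below 0. The summed level of the list had a log2 ratio of -0.11 in TGR and -0.30 in control. In control 27 were scored and 3 were called lower, Mybbp1a, Ddx21 and Nme1, with a median of -0.44, and 26 of the 27 lay below 0. Myc, the transcription factor of growth programmes, stood at 15.99 CPM in TGR members against 48.0 CPM (30 and 90 UMIs, -1.57, -2.23 to -0.98), and at 36.1 CPM in control members against 39.7 CPM (20 and 22 UMIs, -0.14), a difference of -1.43 (-2.58 to -0.31). Srm, the spermidine synthase, stood at 33.6 CPM in TGR members against 94.5 CPM, and at 82.9 CPM in control members against 115 CPM (-1.48 and -0.47). Nme1, a nucleoside diphosphate kinase, stood at 124 CPM in TGR members against 221 CPM, and at 539 CPM in control members against 855 CPM (-0.84 and -0.67), so it was lower in members of both libraries. Npm1, a nucleolar chaperone, was called in neither, at 3531 CPM in TGR members against 3131 CPM and 2486 CPM in control members against 2543 CPM. The list median in TGR was -0.63 within G1 and -0.67 within S or G2/M.

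Some costimulatory receptors of the tumour necrosis factor receptor family were lower in TGR members. Of 18 activation and costimulatory receptors scored in TGR, 4 were called lower in members and 0 higher, namely Tnfrsf4, Tnfrsf9, Tnfrsf18 and Slamf1, with a list median of -0.08 against -0.27 in control. Cd27, a receptor of the same family, lay the other way without a call, at 213 CPM in TGR members against 178 CPM, and at 169 CPM in control members against 134 CPM (log2 ratios 0.25 and 0.34). Tnfrsf9, the receptor 4-1BB, stood at 52.3 CPM in TGR members against 167 CPM (98 and 313 UMIs, -1.67, -2.02 to -1.34), and at 34.3 CPM in control members against 41.5 CPM (-0.27), a difference of -1.40 (-2.40 to -0.38). Tnfrsf4, the receptor OX40, stood at 31.5 CPM in TGR members against 87.5 CPM, and at 21.6 CPM in control members against 37.9 CPM (-1.47 and -0.78). Of 17 scored in control, 2 were called lower, the transferrin receptor Tfrc and the natural killer receptor Klrk1. Tfrc stood at 18.1 CPM in TGR members against 18.7 CPM, and at 79.3 CPM in control members against 144 CPM (-0.86). Cd69 and Cd44, which mark activated T cells, were called in neither library. Cd69 stood at 67.2 CPM in TGR members against 101 CPM (-0.58, -0.92 to -0.25), just under 1.5-fold. In control members it stood at 48.7 CPM against 75.8 CPM (-0.63, -1.39 to 0.09). Cd44 held 54 UMIs in TGR members against 53 (0.03), and 7 in control members against 15 (-1.05, -2.64 to 0.28).

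Among immediate early genes 6 of 14 scored were called lower in TGR members (Jun, Junb, Jund, Ier2, Dusp2, Dusp5) and 0 higher, with a median of -0.45, while in control 1 of 12 was called higher, Nfkbia, with a median of 0.12. Jund stood at 215 CPM in TGR members against 368 CPM, and at 323 CPM in control members against 402 CPM (-0.77 and -0.32). Nfkbia, the inhibitor of NF-kB, stood at 102 CPM in TGR members against 88.0 CPM (0.21), and at 66.7 CPM in control members against 19.9 CPM (37 and 11 UMIs, 1.70).

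Of 19 glycolysis and glucose transport genes scored in TGR, all lay below 0 in members, with 4 called lower (Hk2, Pfkl, Pgam1, Ldha) and a median of -0.25. In control 1 was called lower, Hk2, and 12 of 19 lay below 0. Ldha, the lactate dehydrogenase chain of activated T cells, stood at 649 CPM in TGR members against 1071 CPM (-0.72, -0.83 to -0.62), and at 1514 CPM in control members against 1646 CPM (-0.12), a difference of -0.60 (-0.77 to -0.43). Hk2, the inducible hexokinase, held 18 UMIs in TGR members against 36, and 3 in control members against 14 (-0.98 and -2.05). Slc2a1, the glucose transporter GLUT1, was called in neither library. Txnip, a transcript that rises with glucose and restrains its uptake, stood at 20.8 CPM in TGR members against 19.7 CPM, and at 105 CPM in control members against 43.3 CPM (58 and 24 UMIs, 1.25). Its difference was -1.18 (-2.21 to -0.20).

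Other cytotoxic genes were also compared. Over all scored genes 5.16% were called lower in TGR and 3.18% in control. With 10 granule genes scored per library, 1 call cannot set this list apart from all genes. Of 22 listed granule genes 10 were scored in each library, with 1 called lower in TGR (Serpinb6b), 1 called lower in control (Ctla2a) and 0 higher in either. Nkg7, a granule membrane protein, stood at 446 CPM in TGR members against 634 CPM (-0.51, under 1.5-fold), and at 871 CPM in control members against 944 CPM (-0.12). Srgn, the granule proteoglycan serglycin, stood at 221 CPM in TGR members against 182 CPM, and at 184 CPM in control members against 143 CPM. Perforin, encoded by Prf1, was at the limit of detection, with 2 UMIs in TGR members against 2, and 0 in control members against 0. Gzma held 0 UMIs in TGR members against 6, and 5 in control members against 3. Ifng held 4 UMIs in TGR members against 11, and 0 in control members against 2. Of the 18 T cell receptor and CD8 complex genes in the table, 0 were called in either library. Cd8a stood at 252 CPM in TGR members against 272 CPM, and at 416 CPM in control members against 372 CPM.

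The remaining lists held from 0 to 4 calls in a given direction. Over all scored genes 5.71% were called higher and 5.16% lower in TGR, and 2.91% and 3.18% in control. Lists with 3 or 4 calls in a direction lay above these shares, and no list was tested. Cytosolic ribosomal protein genes (80 scored) and proteasome genes (32 scored) had 0 calls in either library, with medians between -0.07 and 0.02. Mitochondrially encoded genes and the 4 scored cytokines and chemokines also had 0 calls. Of 38 oxidative phosphorylation genes 1 was called lower in TGR and 2 in control. Of 14 MHC class I genes 1 was called higher in TGR members (Erap1, median 0.05) and 3 in control members (H2-T22, Tap1, Nlrc5, median 0.36). Interferon response genes had a median of -0.11 in TGR, with 2 of 21 called higher and 1 lower, and of 0.36 in control, with 2 of 19 higher and 1 lower. Irf7, an interferon-induced transcription factor, held 47 UMIs in TGR members against 27, and 12 in control members against 1. Of the ATF4 target genes 1 of 22 was called higher and 1 lower in TGR members, and 4 of 21 were called lower in control members (Atf4, Psat1, Slc7a5, Slc7a1) and 1 higher. Atf4 itself stood at 293 CPM in TGR members against 282 CPM (0.05), and at 68.5 CPM in control members against 106 CPM (-0.63). Among quiescence and FOXO target genes 3 of 16 were called higher in control members (Pik3ip1, Sesn3, Txnip) and 1 lower, against 0 of 16 in TGR, with medians of 0.15 in TGR and 0.49 in control. Of inhibitory receptors 1 of 5, Lag3, was called lower in TGR members and 0 of 5 in control. Of cholesterol and fatty acid synthesis genes 4 of 21 were called lower and 1 higher in TGR members, and 3 of 25 lower in control. The metallothionein genes Mt1 and Mt2, which bind zinc, were lower in members of both libraries: Mt1 stood at 249 CPM in TGR members against 512 CPM, and at 84.7 CPM in control members against 224 CPM (-1.04 and -1.39).

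By size of ratio, among genes of at least 25 CPM in either class, the 12 highest named genes of TGR members included Brca1, Hspa1a, Mxd3, Kif22, Neil3, Cenpm, Tacc3, Foxm1, Gins4, Ndc80 and Spc25. Brca1, a DNA repair gene, held 47 UMIs in members against 10 (log2 ratio 2.18, 1.23 to 3.38), and 10 against 13 in control. Cenpm, a centromere protein, held 185 against 63 (1.55), and 68 against 70 in control. Mxd3, a MAX-binding factor of the S phase, held 98 against 28 (1.79), and 48 against 40 in control. The 66 UMIs of Hspa1a, a heat shock gene, came from 5 members, against 16 UMIs in 6 partners, so its ratio rests on a handful of cells. Against partners with 6 or more Gzmb UMIs its ratio was -0.81, on 6 UMIs against 11. Within G1 cells these cycle genes were barely counted: Brca1 and Kif22 held 1 UMI in members against 1, Mxd3 held 0 against 2, Foxm1 0 against 1, Tacc3 2 against 3 and Cenpm 6 against 7. The 12 lowest were Osm, Lta, Espn, Zbtb32, Tnfrsf9, Cish, Myc, Socs2, Socs1, Srm, Tnfrsf4 and St6galnac4, with log2 ratios between -2.79 and -1.42.

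The highest and lowest ratios of control members rested on few UMIs. The highest, Zer1, held 14 UMIs in members against 1 (3.27, 1.09 to 9.21), and the 19 UMIs of Abcc10 came from 4 members. Abcc10 held 3 UMIs in members against 3 once cells with markers of other types were left out. The others were Hist1h2ae, Itm2c, Tmc6, Cox6b2, Hbs1l, Pias1, Cep350, Tbc1d10a, Cast and Ctps2, with 14 to 22 UMIs in members against 3 to 5. The lowest was Mt2, with 4 UMIs in members against 36 (-3.02, -5.12 to -1.69), while in TGR it held 254 against 576 (-1.18). It was followed by Rangrf, Insig1, Sdccag3, Dnajc21, Hk2, Slc31a1, Ppif, Tubgcp4, Fam195a, Ppid and Tbrg4, with 2 to 8 UMIs in members against 14 to 29. Better counted genes that were higher in control members, chosen after their values were seen, included Ypel3 with 78 UMIs against 25 (1.62), which held 560 against 350 in TGR (0.68), and H2afv with 434 against 245 (0.82), which held 1270 against 636 in TGR (1.00).

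Among genes of at least 25 CPM in any class, differences between the libraries' ratios were largest upward for Tubgcp4, Brca1, Ube2t, Dnajc21, Tnrc6c, Gxylt1, Senp3 and Gclm, at 2.13 to 2.57, and largest downward for Abcc10, Osm, Zer1, Nfkbiz, Fam60a, Zdhhc7, Araf and Itm2c, at -4.06 to -1.98. Of these 16, Osm was the gene with both UMI sums above 20 in control and an interval wholly under -1. Ccnd2 and Cdk6, a cyclin and its kinase that drive G1, were also lower in TGR members. Both ranked among the genes most like Gzmb over these same cells. Ccnd2 stood at 223 CPM in TGR members against 485 CPM (-1.12), and at 220 CPM in control members against 215 CPM (0.03), a difference of -1.15 (-1.57 to -0.74). Cdk6, named after its values were seen, stood at 78.4 CPM in TGR members against 199 CPM, and at 132 CPM in control members against 188 CPM (-1.34 and -0.51).

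**Figure D4:**
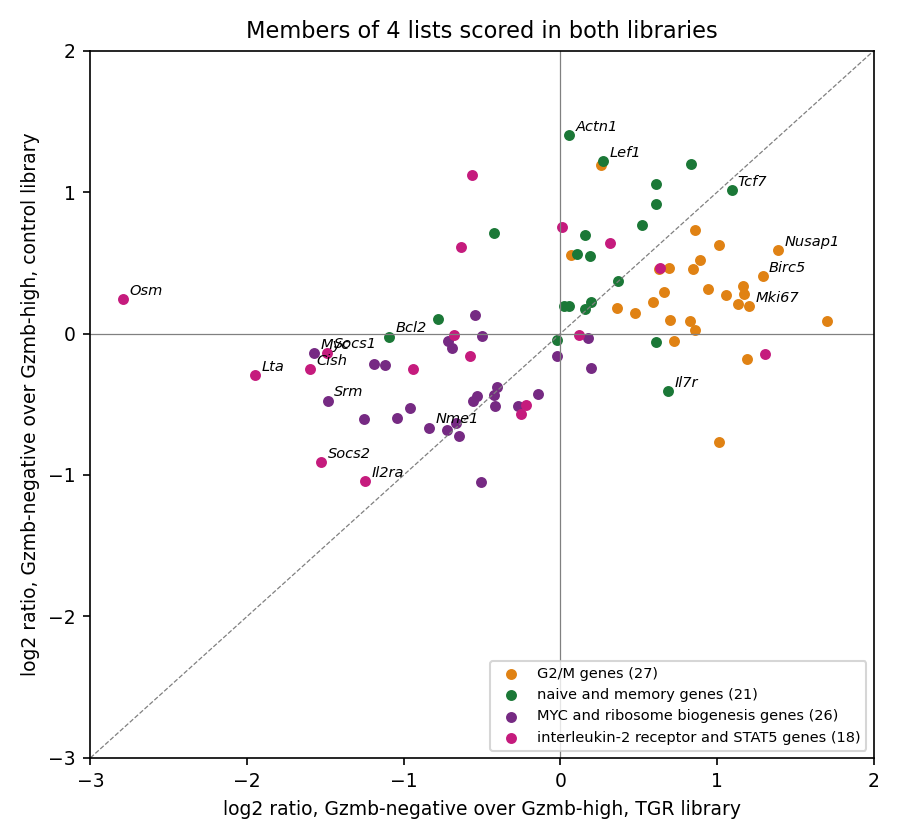
Log2 ratio of Gzmb-negative over matched Gzmb-high cells in the TGR library (x axis) and the control library (y axis) for genes of 4 lists scored in both; each point is a gene and the dashed line marks equal ratios. Il2ra and Tcf7 lie near the dashed line, whereas Osm (-2.79 in TGR, 0.24 in control), Lta, Cish and Myc lie to its left and Lef1 (0.27 and 1.22) above it.

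Levels were also followed across the number of Gzmb UMIs, as a description, since Gzmb chose the members. Among cells of 4000 to 8000 UMIs in TGR, Tcf7 stood at 279 CPM with 0 Gzmb UMIs (246 cells), 222 CPM with 1, 180 CPM with 2, 167 CPM with 3 to 5 and 95.8 CPM with 6 or more (240 cells). In control the series was 217 CPM (102 cells), 223, 144, 155 and 101 CPM (399 cells). Il2ra ran from low to high in both, at 51.4, 83.8, 111, 130 and 183 CPM in TGR and 116, 135, 159, 202 and 256 CPM in control. Osm ran upward in TGR, at 8.31, 18.8, 24.996, 46.3 and 52.7 CPM, and without order in control, at 47.3, 24.0, 40.5, 31.6 and 31.8 CPM. Mki67 ran downward in TGR, at 196, 136, 103, 101 and 43.7 CPM, and lay between 208 and 268 CPM in every control class. The median depth of these classes ran from 5138 to 5953 UMIs in TGR and from 4737 to 5597 UMIs in control, and the share called S or G2/M was 60.2, 59.3, 50, 45.5 and 35.0% in TGR and at least 98.0% in control. The part of depth in these series was not tested.

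**Figure D5:**
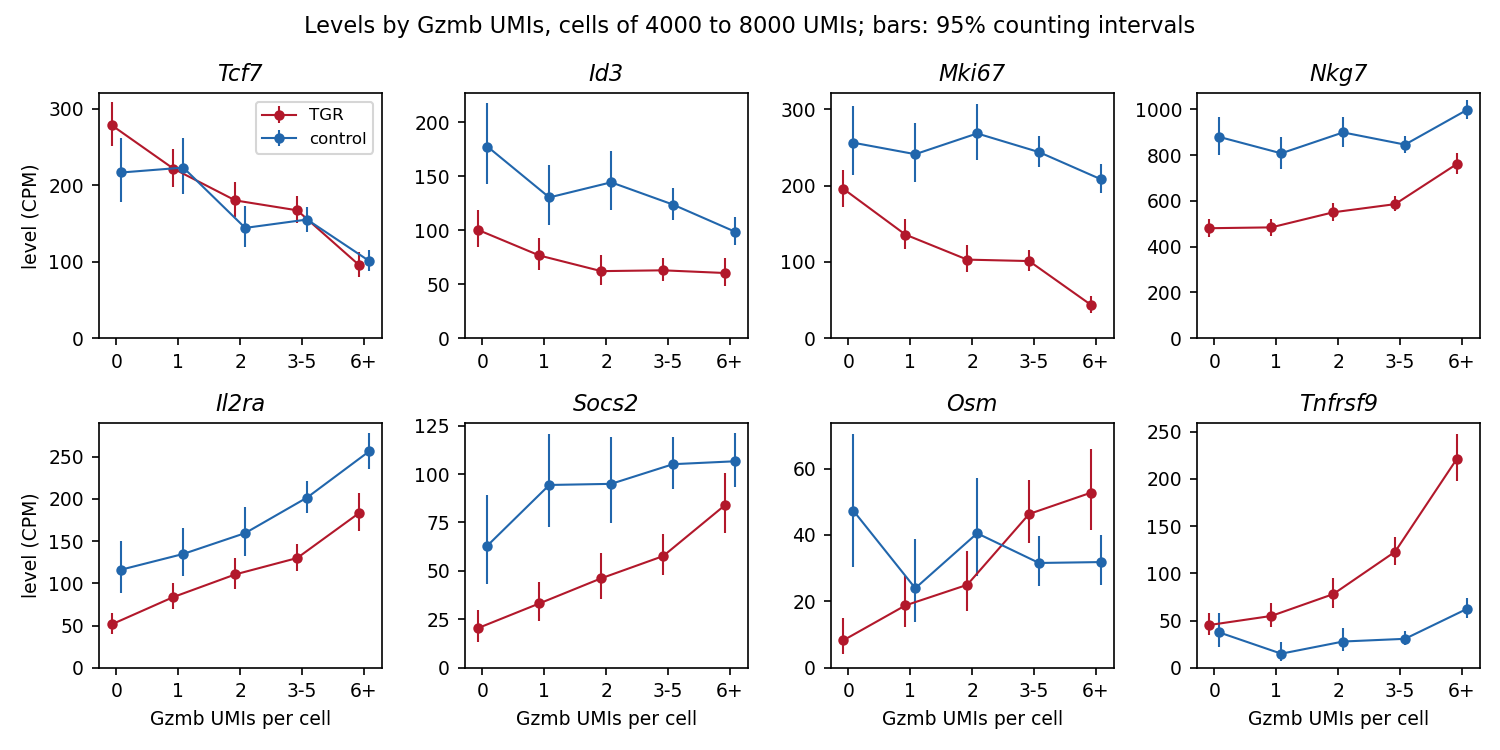
Level (CPM, y axis) of 8 genes by the number of Gzmb UMIs in the cell (x axis) in TGR (red) and control (blue) cells of 4000 to 8000 UMIs, with 95% counting intervals. Tcf7 declined and Il2ra climbed with Gzmb in both libraries, and Osm and Tnfrsf9 climbed in TGR, Osm to 52.7 CPM against 8.31 CPM at 0 Gzmb UMIs.

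Over all cells thinned to 4000 UMIs, the genes most like Gzmb by the mean of the libraries' Spearman correlations were Eif5a (0.29 over 2150 TGR cells and 0.25 over 1588 control cells), Tnfrsf9 (0.25 and 0.13), Tomm5 (0.20 and 0.16), Pfn1 (0.18 and 0.17), Ccnd2 (0.27 and 0.06) and Cnbp (0.17 and 0.16). These values are weak, come from cells that share a library, and are given as a description. Eif5a, a translation factor, stood at 407 CPM in TGR members against 806 CPM, and at 1145 CPM in control members against 1624 CPM (-0.98 and -0.50). Genes of this ranking were picked by likeness to Gzmb over these same cells. Lower values in members are therefore partly set by that choice.

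Set directly against each other, TGR and control members, with a median of 5493.5 and 4790 UMIs, gave the following values for a few genes of the fixed set. Ddit3, the stress factor CHOP, stood at 309 CPM in TGR members and 12.6 CPM in control members (580 and 7 UMIs, log2 ratio of TGR over control 4.57, 3.56 to 5.94), and Atf4 at 293 and 68.5 CPM (2.09). Their Gzmb-high partners stood at 227 CPM in TGR and 14.4 CPM in control for Ddit3, and at 282 and 106 CPM for Atf4. Txnip stood at 20.8 CPM in TGR members and 105 CPM in control members (-2.31), Tfrc at 18.1 and 79.3 CPM (-2.10) and Nkg7 at 446 and 871 CPM (-0.96). Il7r was higher in TGR members, at 89.6 CPM against 27.0 CPM in control members (1.71, 0.96 to 2.60), and Tcf7 stood at 292 CPM against 216 CPM (0.43). The Gzmb-high partners differed in the same directions for these genes. In TGR and control partners Txnip stood at 19.7 and 43.3 CPM, Tfrc at 18.7 and 144 CPM and Nkg7 at 634 and 944 CPM. Il7r stood at 55.5 and 36.1 CPM in these partners, and Tcf7 at 137 and 106 CPM. The glucose level and any other feature of the 2 libraries cannot be told apart with 1 library each.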

How the data were processed

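The deposited files hold raw UMI counts per gene and cell barcode, 1 matrix per library, in filtered gene by barcode form. Cell Ranger 2.2, Seurat 3 and mm10 are named without a role per the submitters' processing notes, and how reads were aligned or barcodes called is not given in the sources used here. The libraries held 19702050 (TGR) and 15103830 (control) UMIs.

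Cells with at least 4000 UMIs and under 10% mitochondrial UMIs were kept, and no doublet caller was run. The 10% limit was also applied to the Gzmb-high cells, which left out 5 control cells. Each member was paired with 1 Gzmb-high cell by optimal assignment on log UMIs (scipy 1.17.1), within 5%. UMIs were summed per class, scaled to totals without Gzmb, and compared as log2 ratios with 0.5 UMI added per class. Intervals of a ratio are exact binomial (Clopper-Pearson), and those of a difference combine both ratios' intervals. Genes were scored at 10 CPM in either class, or in any of the 4 classes for a difference. Phases were scored with scanpy 1.11.5. The ratios and calls were also run on simulated Poisson sums with known changes. These sums held no cells or pairs and followed the counting model that the intervals assume. They therefore do not test the spread between cells. UMIs are molecules, and precision is limited by their number in each class.

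Named genes were the 12 highest and 12 lowest ratios per library and the 8 highest and 8 lowest differences, among genes with at least 25 CPM whose interval excluded no change. They also took in the leading members of each of 22 lists, a fixed set of T cell genes and the 6 genes most like Gzmb. Predicted genes were passed over. A few genes that this rule names are not reported here. Other genes in the text are members of the lists or come from the overlap of the libraries, and were chosen after their values were seen. The members and lists were chosen with earlier results of these data known. Coordinates are from GENCODE M21, which matched 27722 of 27998 gene identifiers. Alternatives varied the matching, depth, Gzmb and mitochondrial limits, CPM minimum, scaling (edgeR 4.0.16 TMM and DESeq2 1.42.0 size factors), phase, cells with markers of other types and shared barcodes. Matching of 3 to 1 and the shared barcodes were added after seeing the data.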

Additional observations from a re-analysis of the deposited data

Results flagged for a closer look

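A total of 7 genes were called in opposite directions in the libraries, and the difference between the libraries was not tested with replicates. All 7 were chosen after their values were seen, and the control sums are small. Members were called higher in TGR and lower in control for 5 of them. These were 1.31% of the genes called higher in TGR, against 3.18% of all scored control genes called lower. Als2cl held 33 UMIs in TGR members against 14, and 2 in control members against 12, a difference of log2 ratios of 3.53. Cdt1, which licenses replication origins, held 143 UMIs in TGR members against 87, and 26 in control members against 47, a difference of 1.56. Clint1 held 101 UMIs in TGR members against 59, and 20 in control members against 39, a difference of 1.72. Tnrc6c held 56 against 33 in TGR and 6 against 18 in control, a difference of 2.26. Tubgcp4 held 40 against 23 in TGR and 4 against 15 in control, a difference of 2.57. The other 2 were called lower in TGR members and higher in control members. They were 0.58% of the genes called lower in TGR, against 2.91% of all scored control genes called higher. Rnf8, a ubiquitin ligase of DNA repair, held 12 UMIs in TGR members against 31, and 11 in control members against 2, a difference of -3.53. Gm21967 held 11 UMIs in TGR members against 24, and 6 in control members against 0, and its difference of -4.79 depends on the 0.5 UMI added per class and is no bound.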

How the results depend on the processing

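Of 104 comparisons of gene counts and phase shares with an alternative, 90 stayed within 1.5 times or within the counting interval and 14 moved. Without matching, 239 genes were called higher in TGR members, and 54.5% of all TGR Gzmb-high cells were called S or G2/M. From 6000 UMIs, which left 18 control members, control had 66 genes higher and 91 lower, and the difference was called above 0 for 143 genes and below 0 for 81. With a minimum of 50 CPM, TGR had 84 genes higher and 93 lower, control 99 and 132, and the difference 130 and 102. Among G1 cells 142 genes were called higher in TGR members, 33.9% of the calls, and among S or G2/M cells 238. No control member was called G1, so control and the difference have no G1 value.

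Each named gene's ratio was compared with its main value under each alternative. In 18 of these comparisons a called gene changed sign, in 304 a call was lost and in 134 one was gained. The call, or the lack of one, stayed the same in 4029, which include uncalled genes whose ratio changed sign. Changing the CPM minimum or leaving out shared barcodes could not change a ratio. Their comparisons were the same in advance, apart from calls lost under the minimum of 50 CPM. Of the comparisons of list medians 71 moved. A reversal was counted only for a main median of at least 1.5-fold, and 0 of those reversed. Only the G2/M, interleukin-2 receptor and STAT5, and MYC and ribosome biogenesis lists reached that size, all in TGR. In TGR members against partners with 6 or more Gzmb UMIs, Erap1 had a log2 ratio of -0.16 and Hspa1a of -0.81. From 6000 UMIs Hspa1a had -1.25 and Rangrf 0.46 in TGR, and Tbrg4 0.36 in control. Within TGR G1 cells Nusap1 and Mxd3 had -2.32, Foxm1 -1.59, Ube2t -0.53, Tacc3 -0.49, Cenpm -0.21, Tyms -0.16, Fads1 -0.00074, and Bub1, Kif22 and Brca1 -0.00062. Within TGR S or G2/M cells Rangrf had 0.0055. Without cells holding markers of other types Abcc10 had -0.0013 in control. These values rest on few UMIs. In TGR G1 cells Nusap1 and Mxd3 held 0 UMIs in members against 2 and Foxm1 0 against 1, so their values depend on the 0.5 UMI added and are no bound. The cause was not tested. Leaving out the shared barcodes changed no value.

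No paired analysis was possible because each condition has 1 library. No replicate was left out, since there is none. Control has 107 pairs against 300 in TGR, so the 2 libraries' counts of calls are not comparable, and a gene not called in control is not shown to be equal there.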
